A study of Mus musculus with 2 samples.

Results

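The genes described here are 10 enzymes that handle peroxides, glutathione, haem and quinones in mouse kidney cells, out of 31053 genes measured. They were chosen by name: the glutathione peroxidases Gpx1, Gpx3 and Gpx6, the glutathione transferase Gsta2, the glutathione-synthesising subunits Gclc and Gclm, haem oxygenase 1 (Hmox1), the quinone reductase Nqo1, thioredoxin reductase 1 (Txnrd1) and sulfiredoxin 1 (Srxn1). Their UMIs (unique molecular identifiers, a count of captured mRNA molecules) were summed per cell class in 2 single-cell RNA-seq libraries, over barcodes that held 500 UMIs or more from 200 genes or more, with under 50% of UMIs from mitochondrially encoded genes. The Kif3aΔTub library came from kidney of 5-week-old mice labelled as knockout. Kif3a codes for a subunit of kinesin-2, the motor that builds cilia, and the line is known for its loss from kidney tubule cells. The WT library came from kidney of 5-week-old wild type mice. For both, 1 kidney of each mouse was dissociated on ice with a cold-active protease, red blood cells were lysed, dead cells were removed, and the cells were captured with the 10x Chromium 3' v3 chemistry. The number of mice behind each library, the Cre driver and the deleted exons are not given in the sources used here.

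Glutathione is a tripeptide made in the cytosol, and glutamate-cysteine ligase, the enzyme formed by Gclc and Gclm, sets the rate of its synthesis. Glutathione peroxidases use it to reduce peroxides, and glutathione transferases couple it to reactive electrophiles. Many of these genes are known targets of the transcription factor Nrf2, which the adaptor Keap1 keeps low and which binds antioxidant response elements once electrophiles or oxidants modify Keap1. The proximal tubule is the main source of the secreted peroxidase Gpx3 in the body and is a segment with a high oxidative load.

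Promoter letters were read for the core of the antioxidant response element, TGACNNNGC, on both strands of the 250 bases before each RefSeq start site (GRCm38.p6). Of the 10 genes, 8 had an entry, with 10 promoters, and 2 of the 8 held a match. The stretch around each match is shown because these are the only members whose promoter windows carry the letters; the match is in capitals, and it lies on the minus strand in both.
Gclm, chr3:122245398-122245456, + strand, match 134 bases before the start: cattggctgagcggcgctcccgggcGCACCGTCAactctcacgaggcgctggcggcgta
Txnrd1, chr10:82859089-82859147, + strand, match 92 bases before the start: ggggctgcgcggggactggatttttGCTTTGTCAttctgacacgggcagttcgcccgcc
The same letters occurred in 3338 of 32851 promoters (10.2%) and in 3112 of 27025 genes (11.5%), so 2 of 8 is a small count beside a common motif. The other 6 genes with an entry had no match in this window. Txnrd1 had 3 promoters, and 1 of them matched.

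The Kif3aΔTub library held 7950 barcodes, of which 7236 passed the limits and 7066 remained after removal of called doublets, with 79060495 UMIs. The WT library held 6938 barcodes, of which 4371 passed and 4317 remained, with 42468386 UMIs. Median depth was close (7799 UMIs per cell in Kif3aΔTub and 7771 in WT), but the median mitochondrial share was 7.54% in Kif3aΔTub cells and 26.8% in WT cells. The mitochondrial limit removed 706 Kif3aΔTub barcodes (8.88%) and 2564 WT barcodes (37.0%). The libraries shared 20 barcodes, 17 of which passed in both. Kif3a itself stood at 12.2 CPM (UMIs of a gene per 1000000 UMIs of the cells summed) in the Kif3aΔTub library and 10.3 CPM in the WT library. In proximal tubule-like cells it was 15.9 CPM (13.6 to 18.4) in Kif3aΔTub and 8.19 CPM (7.20 to 9.27) in WT, so its mRNA was not lower there. Reads at the 3' end do not check the deletion, since the deleted part is not given. Both libraries carried Y-linked RNA, with Ddx3y at 49.8 CPM in Kif3aΔTub and 54.0 CPM in WT. There is 1 library per genotype, so no difference has a replicate check, no test between genotypes was possible, and every interval (95%) covers counting error only.

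Classes came from clusters made without the 10 genes and without 94 related genes, and were named from marker lists. Proximal tubule-like cells numbered 1043 of 7066 (14.8%) in the Kif3aΔTub library and 2949 of 4317 (68.3%) in the WT library. The other classes with at least 100 cells in each library were thick ascending limb-like (590 Kif3aΔTub and 338 WT cells), distal convoluted tubule-like (388 Kif3aΔTub and 216 WT), principal-like (996 Kif3aΔTub and 138 WT), intercalated-like (446 Kif3aΔTub and 287 WT) and endothelium-like cells (475 Kif3aΔTub and 155 WT). Injured tubule-like (954 cells), macrophage-like (540) and monocyte-like cells (217) were large in the Kif3aΔTub library, while the WT library held 3, 3 and 5 cells of those classes. In proximal tubule-like, thick ascending limb-like, distal convoluted tubule-like and principal-like cells, different clusters held most of the class in each library. Kif3aΔTub proximal tubule-like cells lay mostly in cluster 1 (895 cells), and WT ones in clusters 0 and 4 (914 and 628 cells, high in early segment genes) and 5 and 8 (596 and 540 cells, high in late segment genes). Cluster 12, made of shallow cells, held 88 Kif3aΔTub and 258 WT cells. Thick ascending limb-like cells lay in cluster 6 (573 Kif3aΔTub cells) and cluster 13 (325 WT cells), and distal convoluted tubule-like cells in cluster 10 (387 Kif3aΔTub and 53 WT cells) and the Pvalb-rich cluster 22 (1 Kif3aΔTub and 163 WT cells). Principal-like cells lay mostly in cluster 3 (828 Kif3aΔTub and 4 WT cells) and cluster 18 (107 Kif3aΔTub and 132 WT cells). Clusters 11 and 17 (intercalated-like) and 15 and 16 (endothelium-like) each held many cells of both libraries. The proximal tubule markers were present in both libraries, and defining markers of each compared class passed in its clusters. Cluster 10 also passed principal and thick ascending limb markers, and cluster 2, which holds 889 of the injured tubule-like cells, passed all 8 principal markers. Besides the markers of their own class, cluster 1 passed the injured tubule markers Vcam1, Cp and Akap12 and cluster 6 passed Lcn2, Krt18 and Akap12, while fewer than 3 injured tubule markers passed in WT clusters 0, 4, 5, 8 and 13. The 7 injured tubule markers summed to 517 CPM in Kif3aΔTub and 3.59 CPM in WT proximal tubule-like cells, and to 3929 CPM in Kif3aΔTub and 29.2 CPM in WT thick ascending limb-like cells. They summed to 2464 CPM in Kif3aΔTub and 43.1 CPM in WT distal convoluted tubule-like cells, to 5837 CPM in Kif3aΔTub and 565 CPM in WT principal-like cells, to 548 CPM in Kif3aΔTub and 137 CPM in WT intercalated-like cells and to 362 CPM in Kif3aΔTub and 139 CPM in WT endothelium-like cells. None was at 0 in Kif3aΔTub proximal tubule-like and thick ascending limb-like cells, and Krt20 alone was at 0 in the other Kif3aΔTub classes. In WT none was at 0 in proximal tubule-like cells and 3 to 6 were at 0 in the other classes. The part of these genes in the ratios below was not tested. Cells of unnamed clusters (970 Kif3aΔTub and 44 WT cells) entered no class.

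Within classes, a gene was counted as higher or lower in Kif3aΔTub cells when its ratio was at least 2-fold and the interval left out 1. The shares of all genes given beside these counts are over genes with at least 20 UMIs in the class, a depth that 55 of the 60 gene and class pairs reached; the other 5 (Gpx6 in 4 classes and Gsta2 in endothelium-like cells) passed neither way. In proximal tubule-like cells 3 of the 10 genes were higher (Gsta2, Hmox1 and Nqo1) and 0 lower, beside 15.3% of 12240 genes higher and 3.92% lower. The thick ascending limb-like cells had 4 higher (Gpx1, Gclc, Gclm and Hmox1) and 2 lower (Gpx3 and Gpx6), beside 22.6% and 4.45% of all genes. The distal convoluted tubule-like cells had 3 higher (Gsta2, Hmox1 and Txnrd1) and 2 lower (Gpx3 and Gpx6), beside 20.6% and 3.49%. In principal-like cells 0 were higher and Gpx3 alone was lower, beside 5.49% and 4.02%. In intercalated-like cells Hmox1 was higher and Gpx3 lower, beside 9.21% and 3.07%. In endothelium-like cells 0 were higher and 2 lower (Gpx3 and Srxn1), beside 3.59% and 2.98%. Each count of 3 or 4 of 10 higher lay above the share of all genes in its class. The members are few, and whether such a count departs from that share was not tested. Among genes with at least 100 UMIs the share higher was 10.5% in proximal tubule-like cells. It was 19.3% for the distal convoluted tubule-like class and 19.8% for the thick ascending limb-like class. Outside the proximal tubule-like cells, 8 of 50 gene and class pairs were higher and 8 lower. The lower pairs include Gpx3 in every one of these classes. In thick ascending limb-like, principal-like and endothelium-like cells its level was close to free RNA and is not read as expression, as given below. With totals that leave out mitochondrially encoded genes the split of the 50 pairs was 3 higher and 8 lower, and with edgeR's TMM factors or DESeq2's size factors it was 3 higher and 9 lower. In proximal tubule-like cells each of those scalings gave 3 higher and 1 lower, the added gene being Gpx6 with 1 Kif3aΔTub and 17 WT UMIs.

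Median log2 ratios were taken over the members with at least 20 UMIs in the class, beside all genes with at least 20 UMIs. The members' median was 0.75 beside 0.31 in proximal tubule-like cells (9 members) and 0.50 beside 0.48 in thick ascending limb-like cells (10 members). It was 0.21 beside 0.49 in distal convoluted tubule-like cells (10 members) and −0.31 beside 0.0003 in principal-like cells (9 members). In intercalated-like cells it was 0.10 beside 0.26 (9 members), and in endothelium-like cells −0.15 beside 0.02 (8 members). The median mitochondrial share was 19.6% in Kif3aΔTub and 28.0% in WT proximal tubule-like cells. It was 7.21% in Kif3aΔTub and 34.2% in WT thick ascending limb-like cells, and 12.9% in Kif3aΔTub and 36.4% in WT distal convoluted tubule-like cells. The other classes stood at 7.48% in Kif3aΔTub and 13.9% in WT principal-like cells, 10.4% in Kif3aΔTub and 24.9% in WT intercalated-like cells and 4.00% in Kif3aΔTub and 5.86% in WT endothelium-like cells. Ratios with totals without mitochondrially encoded genes are given above and in the paragraphs on each gene where they change a call. A list of 19 dissociation stress genes, such as Fos and Jun, summed to 1204 CPM in Kif3aΔTub and 596 CPM in WT proximal tubule-like cells, and to 3256 CPM in Kif3aΔTub and 890.1 CPM in WT thick ascending limb-like cells. It summed to 3297 CPM in Kif3aΔTub and 1196 CPM in WT distal convoluted tubule-like cells, and to 2865 CPM in Kif3aΔTub and 1339 CPM in WT intercalated-like cells. Principal-like cells were closer, at 2331 CPM in Kif3aΔTub and 1873 CPM in WT, and endothelium-like cells held 4883 CPM in Kif3aΔTub and 5535 CPM in WT. With cells limited to under 0.1% of UMIs from this list, only proximal tubule-like cells kept 100 cells in each library. In those (571 Kif3aΔTub and 2363 WT cells) the log2 ratios were 1.76 for Gsta2, 1.64 for Hmox1 and 2.69 for Nqo1, and all 3 passed. For the other classes the part of these genes was not tested.

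**Figure D1:**
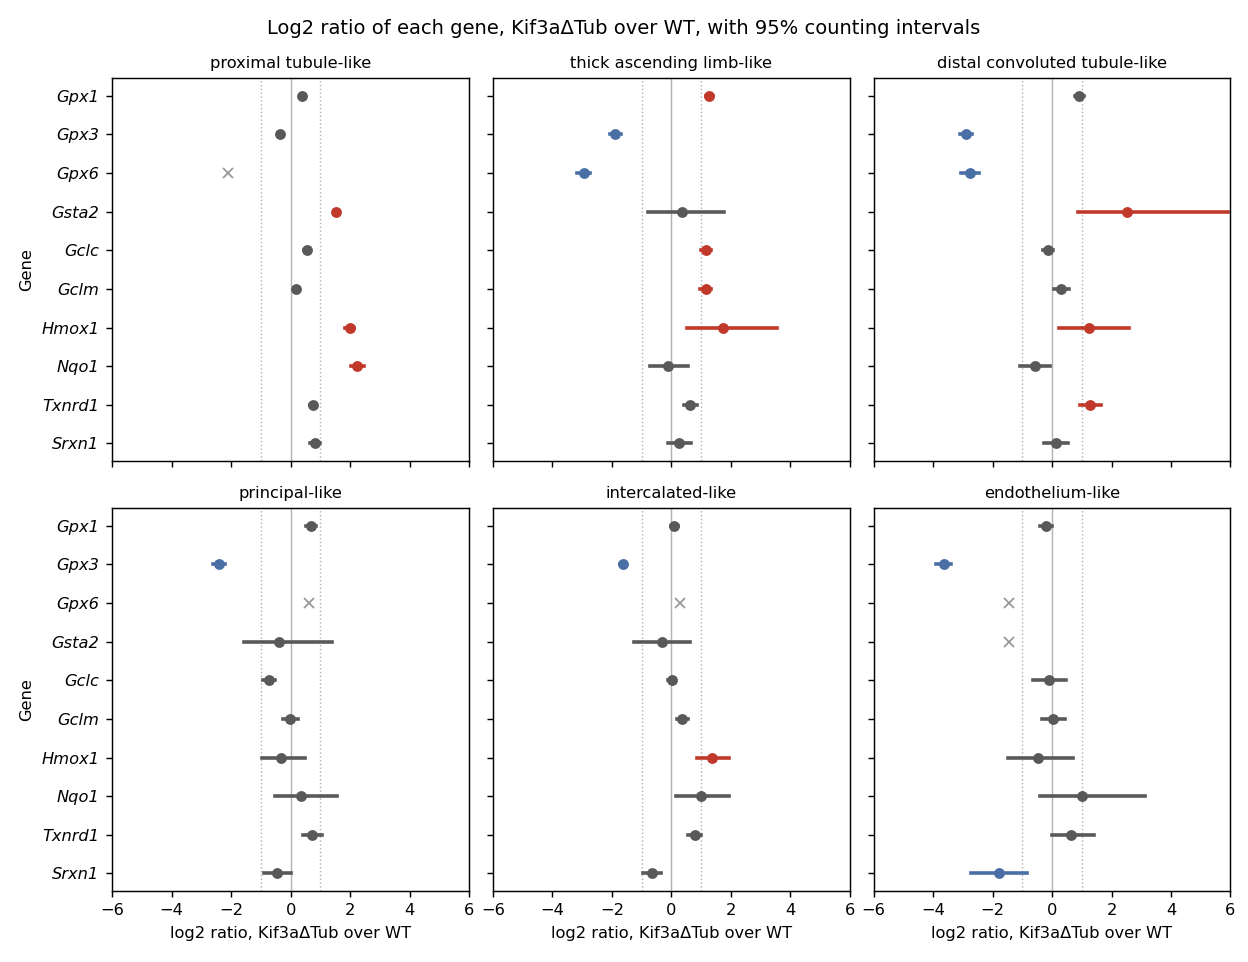
Log2 ratio of each of the 10 genes, Kif3aΔTub over WT, in the 6 compared classes. Points are ratios of summed UMIs, lines are 95% counting intervals, red is at least 2-fold higher, blue at least 2-fold lower, grey neither, and grey crosses are genes with under 20 UMIs; dotted lines mark 2-fold. Gpx3 lies left of the 2-fold line in all 5 classes outside the proximal tubule-like cells.

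Gpx1 is the cytosolic selenium-dependent glutathione peroxidase of most cells (chr9:108338903-108340343, + strand, GRCm38, a protein-coding gene with 2 exons). Proximal tubule-like cells held it at 3299.6 CPM in the Kif3aΔTub library and 2508 CPM in the WT library, a log2 ratio of 0.40 (0.38 to 0.41) that did not reach 2-fold. That ratio was 0.05 with TMM factors, so its size depended on the scaling. The proximal tubule-like class held the most Gpx1 per UMI in both libraries, and no other class came within its interval. Thick ascending limb-like cells held Gpx1 at 532 CPM in the Kif3aΔTub library and at 221 CPM in the WT library, a log2 ratio of 1.27 (1.15 to 1.39). That value passed 2-fold, but it was 0.82 with totals without mitochondrially encoded genes and 0.88 with doublets kept. The ratio was 0.92 (0.78 to 1.07) in distal convoluted tubule-like cells and 0.68 (0.52 to 0.84) in principal-like cells, both under 2-fold. In intercalated-like cells it stood at 349 CPM in Kif3aΔTub and 325 CPM in WT, and in endothelium-like cells at 439 CPM in Kif3aΔTub and 506 CPM in WT. The myeloid classes of the Kif3aΔTub library came next to the proximal tubule-like cells, with 1995 CPM in monocyte-like, 1305 CPM in neutrophil-like and 1225 CPM in macrophage-like cells. The neutrophil-like and macrophage-like intervals overlapped.

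Gpx3 is the secreted plasma glutathione peroxidase (chr11:54902453-54910377, + strand, 5 exons). It reached 12577 CPM in Kif3aΔTub and 15911 CPM in WT proximal tubule-like cells, a log2 ratio of −0.34 (−0.35 to −0.33), under 2-fold. After each cell was thinned to 1000 UMIs, 98.2% of Kif3aΔTub and 98.6% of WT proximal tubule-like cells still held a Gpx3 UMI. The ratio depended on which WT cells it was set against. WT clusters 0 and 4, with early segment genes, held 22136 and 20485 CPM, and WT clusters 5 and 8, with late segment genes, 6609 and 6144 CPM. Kif3aΔTub cluster 1 lay between them at 12289 CPM. Against clusters 0 and 4 the log2 ratio was −0.79, and against clusters 5 and 8 it was 0.99, so the direction turned. In cluster 12, which holds cells of both genotypes, the levels were 10843 CPM in Kif3aΔTub and 10439 CPM in WT cells, a log2 ratio of 0.06 (−0.04 to 0.15).

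**Figure D2:**
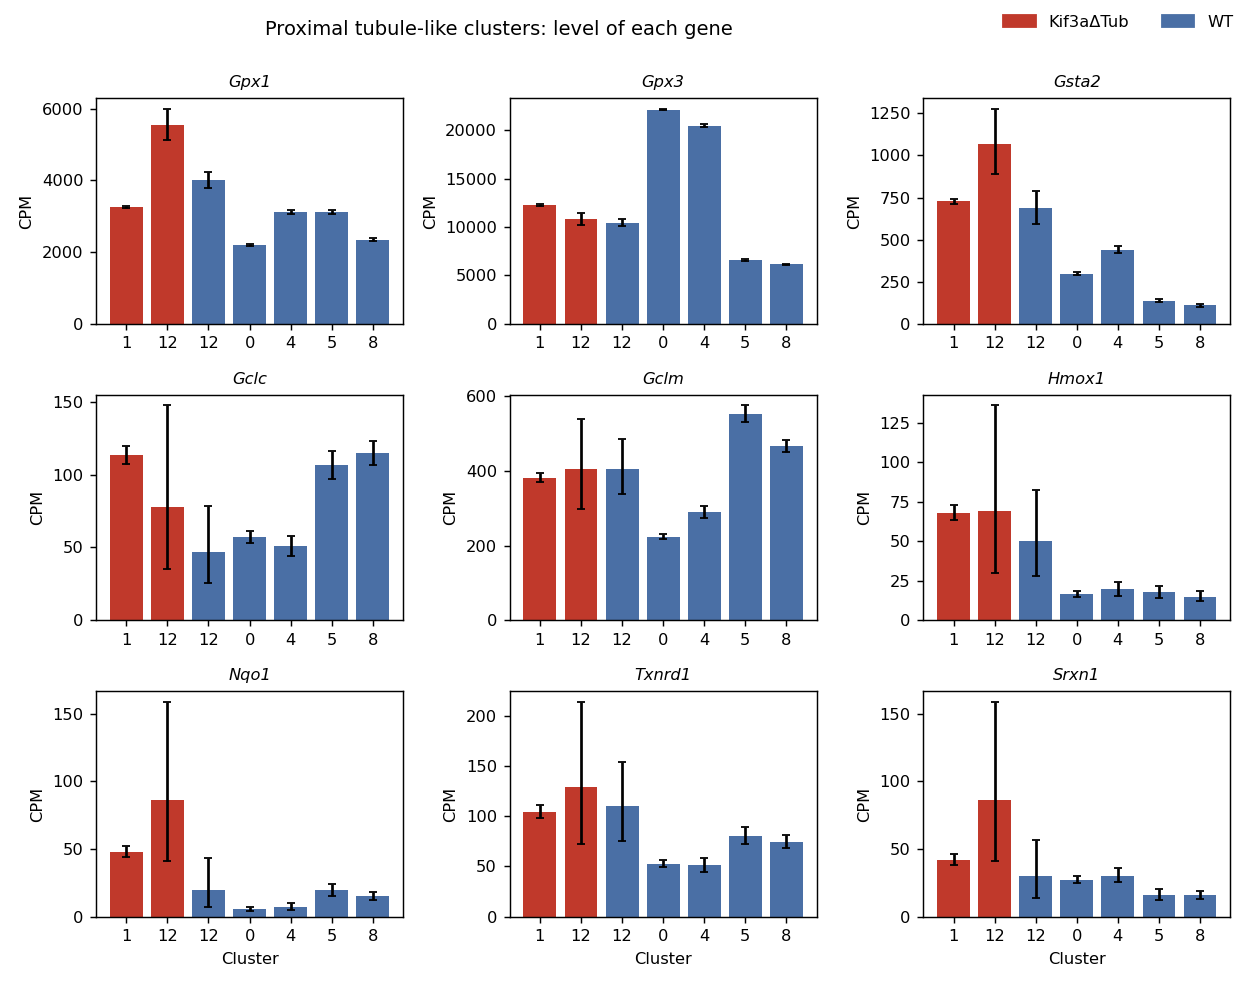
Level of 9 of the genes (CPM, bars from 0, with 95% counting intervals) in the proximal tubule-like clusters of each library, Kif3aΔTub in red and WT in blue; Gpx6, with 1 and 17 UMIs, is left out. Hmox1 and Nqo1 of Kif3aΔTub cluster 1 (68.2 and 48.2 CPM) stand above WT clusters 0, 4, 5 and 8, while Gpx3 (12289 CPM) falls between the early and the late WT clusters.

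Outside the proximal tubule-like cells Gpx3 was lower in all 5 compared classes of the Kif3aΔTub library. In thick ascending limb-like cells it stood at 60.4 CPM in Kif3aΔTub against 222 CPM in WT (log2 ratio −1.88, −2.05 to −1.71, and −3.49 with doublets kept). It stood in distal convoluted tubule-like cells at 59.1 CPM in Kif3aΔTub against 439 CPM in WT (−2.89, −3.10 to −2.69), and in principal-like cells at 46.2 CPM in Kif3aΔTub against 245 CPM in WT (−2.41, −2.61 to −2.19). In endothelium-like cells Kif3aΔTub held 87.6 CPM and WT 1097 CPM (−3.64, −3.91 to −3.39). With classes set per cell from markers the ratios were −1.82 in distal convoluted tubule-like and −1.86 in endothelium-like cells. Free RNA from burst cells enters all droplets, and proximal tubule-like cells made up 14.8% of the Kif3aΔTub and 68.3% of the WT cells, so these levels were set beside the RNA of 10 other proximal tubule genes, such as Slc34a1 and Miox. The measure is each gene's level in a class as a percent of its level in proximal tubule-like cells of the same library, with the median over the 10 genes. In Kif3aΔTub, Gpx3 stood at 0.480% in thick ascending limb-like cells beside a median of 0.360%, at 0.367% beside 0.269% in principal-like cells and at 0.697% beside 0.973% in endothelium-like cells. In WT, Gpx3 stood at 1.40% beside 1.19% in thick ascending limb-like cells, at 1.54% beside 1.46% in principal-like cells and at 6.90% beside 4.90% in endothelium-like cells. In these classes Gpx3 was 0.716 to 1.41 times the other proximal tubule RNA, and levels this close to it are not read as expression.

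Intercalated-like cells stood apart. Gpx3 there was 2.75% of the proximal tubule-like level in Kif3aΔTub, beside a median of 0.755% for the other genes, which is 3.64 times the background. In WT it was 6.66% beside 2.25%, which is 2.96 times the background. In absolute level this was 345 CPM in Kif3aΔTub and 1060.0 CPM in WT, a log2 ratio of −1.62 (−1.71 to −1.53). The ratio was −1.49 with the expected free RNA subtracted at the median rate, and −1.20 to −1.58 within the clusters. In cluster 17, with the pendrin gene Slc26a4, the levels were 611 CPM in Kif3aΔTub and 1402 CPM in WT, and in cluster 11, with the anion exchanger Slc4a1, 213 CPM in Kif3aΔTub and 634 CPM in WT. Distal convoluted tubule-like cells came next, at 1.79 times the background in Kif3aΔTub and 1.76 times in WT, and the ratio was −2.90 after the subtraction at the median rate. With a rate from the sum of the free RNA genes, 545 free UMIs were expected in Kif3aΔTub, more than the 268 counted. In WT 414 of 724 were expected. The Kif3aΔTub level there thus lay above or below free RNA depending on the rate. At the median rate the ratio was −1.29 in thick ascending limb-like cells. In principal-like cells it turned to 0.20, with 168 of 681 UMIs left in Kif3aΔTub and 10.2 of 262 in WT, so that value is uncertain. In endothelium-like cells the Kif3aΔTub sum left too few UMIs for a value. In the Kif3aΔTub library adipocyte-like cells (37 cells) held Gpx3 at 842 CPM, 26 times the background, and injured tubule-like cluster 26, led by Cp and Tnc, at 844 CPM, 8.73 times the background. Cluster 26 passed the mural markers Pdgfrb, Tagln, Acta2 and Cspg4 besides the injured tubule markers Vcam1, Cp, Krt18 and Akap12. Its Gpx3 level thus cannot be placed in injured tubule cells alone. The larger injured cluster 2 held 59.0 CPM.

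**Figure D3:**
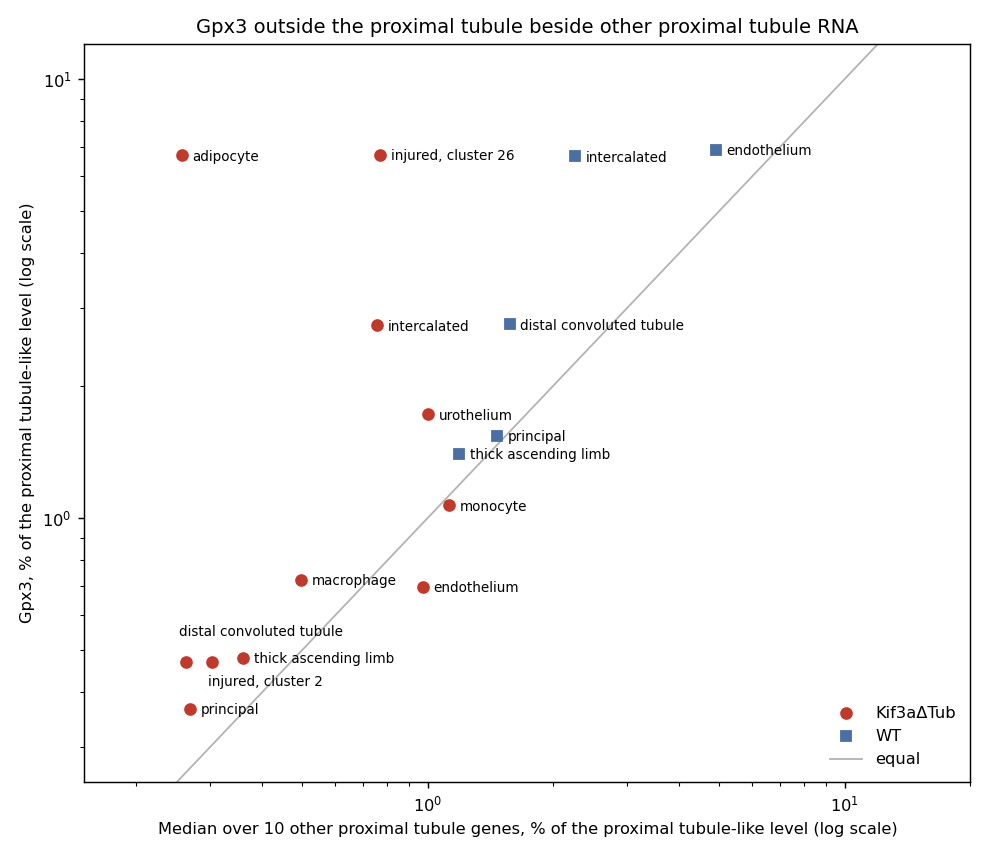
Gpx3 in each class as a percent of its level in proximal tubule-like cells (vertical axis), beside the median of 10 other proximal tubule genes (horizontal axis), both on log scales, with Kif3aΔTub as red circles and WT as blue squares. Principal-like, thick ascending limb-like and monocyte-like points lie near the line of equality, while intercalated-like cells of both libraries, adipocyte-like cells and injured cluster 26 lie above it. Cluster 26 also passed mural markers.

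Gpx6 is a glutathione peroxidase best known from olfactory epithelium (chr13:21312125-21319624, + strand, 5 exons). Most of its UMIs lay in distal nephron classes: thick ascending limb-like cells held 56.9% of them in the Kif3aΔTub and 68.4% in the WT library, and distal convoluted tubule-like cells 32.3% in Kif3aΔTub and 28.7% in WT. Gpx6 in thick ascending limb-like cells stood at 29.0 CPM (215 UMIs) in Kif3aΔTub and 224 CPM (713 UMIs) in WT, a log2 ratio of −2.95 (−3.17 to −2.73). After thinning, 2.04% of Kif3aΔTub and 17.1% of WT cells of this class held a UMI, beside 0% of Kif3aΔTub (upper bound 0.373%) and 0.0734% of WT proximal tubule-like cells. The ratio lay between −3.43 and −2.70 under all 13 alternatives run. Since cluster 6 held nearly all Kif3aΔTub and cluster 13 nearly all WT cells of this class, genotype and cluster cannot be told apart there; Gpx6 was among the 10 leading genes of cluster 13, although it was not used to form it.

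In distal convoluted tubule-like cells Gpx6 stood at 26.9 CPM in Kif3aΔTub and 181 CPM in WT, a log2 ratio of −2.75 (−3.07 to −2.44). That difference lay between clusters: WT cluster 22, with Pvalb, a marker of the early distal convoluted tubule, held 222 CPM. Within cluster 10 the levels were 26.9 CPM in Kif3aΔTub and 18.4 CPM in WT cells, a log2 ratio of 0.44 (−0.61 to 2.02), so the lower level was not seen there. Gpx6 was not detected in injured tubule-like cells, and held 10 UMIs in Kif3aΔTub and 0 in WT principal-like cells.

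Gsta2 is an alpha-class glutathione transferase that conjugates glutathione to electrophiles and reduces lipid peroxides (chr9:78331018-78355788, − strand, 7 exons). Of the 91-base windows in the last 500 bases of its transcript, 9.76% are shared with Gsta1, Gm10639 or Gm3776, so a small part of its count could not be told from theirs; the other 9 genes shared none. Gsta2 stood at 736 CPM (8298 UMIs) in Kif3aΔTub and 255 CPM (7747 UMIs) in WT proximal tubule-like cells, 2.89-fold higher (log2 1.53, 1.48 to 1.57). Thinned to 1000 UMIs, 47.1% of Kif3aΔTub and 22.3% of WT proximal tubule-like cells held a UMI, against 0.510% of Kif3aΔTub and 0.306% of WT thick ascending limb-like cells. Unthinned, the shares were 83.3% of Kif3aΔTub and 63.3% of WT proximal tubule-like cells (medians of 8078 UMIs in Kif3aΔTub and 7995 in WT), and 3.05% of Kif3aΔTub and 2.37% of WT thick ascending limb-like cells (medians of 8796 UMIs in Kif3aΔTub and 8847 in WT). The level of Kif3aΔTub cluster 1, 727 CPM, exceeded that of all 4 large WT clusters, which ran from 109 CPM in cluster 8 to 439 CPM in cluster 4. In the shallow cluster 12 it was 1070.5 CPM in Kif3aΔTub and 686 CPM in WT cells, a log2 ratio of 0.64 (0.31 to 0.97), under 2-fold.

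Outside the proximal tubule-like cells Gsta2 was scarce. The 39 UMIs in Kif3aΔTub and 2 UMIs in WT distal convoluted tubule-like cells gave a log2 ratio of 2.52 (0.88 to 5.92), but within cluster 10 it was 0.18 (−1.46 to 3.58) and with classes set per cell from markers 0.47. Levels ran from 3.37 to 8.6 CPM over the 5 compared classes outside the proximal tubule of the Kif3aΔTub library and from 1.21 to 13.9 CPM over those of the WT library. Urothelium-like cells, nearly all from the Kif3aΔTub library, held 27.3 CPM.

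Gclc, the catalytic subunit of glutamate-cysteine ligase (chr9:77754535-77794485, + strand, 16 exons), was the one member whose level was highest in intercalated-like cells in both libraries. It stood there at 442 CPM (422 to 463) in Kif3aΔTub and 440.1 CPM (417 to 464) in WT, a log2 ratio of 0.01 (−0.09 to 0.11). In the Kif3aΔTub library thick ascending limb-like cells came next at 268 CPM, then distal convoluted tubule-like cells at 221 CPM, with no overlap of neighbouring intervals. In the WT library the order was distal convoluted tubule-like cells at 244 CPM and principal-like cells at 204 CPM, whose intervals overlapped, then thick ascending limb-like cells at 120.1 CPM. The thick ascending limb-like ratio, 1.16 (1.00 to 1.32), passed 2-fold, while with totals without mitochondrially encoded genes it was 0.70 and after thinning 0.81. In principal-like cells Gclc stood at 123 CPM in Kif3aΔTub and 204 CPM in WT (−0.73, −0.93 to −0.51), under 2-fold. That ratio was −0.15, with an interval that held 1, within cluster 18 and passed 2-fold, at −1.28, after thinning. In proximal tubule-like cells it stood at 111 CPM in Kif3aΔTub and 76.4 CPM in WT, a log2 ratio of 0.54 (0.44 to 0.64). Kif3aΔTub cluster 1 stood at 113 CPM, beside 106.5 and 115 CPM in WT clusters 5 and 8, and its class had a log2 ratio of −0.00 against those.

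Gclm, the modifier subunit that raises the ligase's efficiency (chr3:122245557-122270732, + strand, 7 exons, overlapping Gm6061 on the same strand), followed another order, with its highest levels in proximal tubule-like and cycling-like cells. It stood at 379 CPM in Kif3aΔTub and 337 CPM in WT proximal tubule-like cells, a log2 ratio of 0.17 (0.12 to 0.22). That ratio was −0.02 with totals without mitochondrially encoded genes, −0.18 with TMM factors and −0.13 with size factors, so its sign turned with the scaling. It was 0.67 against WT clusters 0 and 4 and −0.40 against clusters 5 and 8. Gclm in thick ascending limb-like cells stood at 194 CPM in Kif3aΔTub and 87.2 CPM in WT (1.16, 0.97 to 1.35), which fell under 2-fold, at 0.70, with totals without mitochondrially encoded genes and after thinning, and at 0.87 with classes set per cell from markers. In principal-like cells it was 120.5 CPM in Kif3aΔTub and 121 CPM in WT, and in endothelium-like cells 119.5 CPM in Kif3aΔTub and 116 CPM in WT. Urothelium-like cells of the Kif3aΔTub library held 248 CPM.

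Hmox1, which opens haem to biliverdin, iron and carbon monoxide (chr8:75093621-75100589, + strand, 5 exons), stood at 67.8 CPM (765 UMIs) in Kif3aΔTub and 17.1 CPM (521 UMIs) in WT proximal tubule-like cells. It was 3.96-fold higher (log2 1.98, 1.82 to 2.15), and stayed between 1.64 and 2.10 on the log2 scale under every alternative except cluster 12 alone. After thinning, 5.87% of Kif3aΔTub and 1.87% of WT proximal tubule-like cells held a UMI, beside 0.850% of Kif3aΔTub and 0.306% of WT thick ascending limb-like cells (unthinned 33.5% of Kif3aΔTub and 14.5% of WT proximal tubule-like cells). Kif3aΔTub cluster 1 stood at 68.2 CPM, and the 4 large WT clusters ran from 15.0 to 19.5 CPM. In cluster 12 the levels were 69.1 CPM in Kif3aΔTub and 49.9 CPM in WT cells (0.51, −0.98 to 1.80), so the call was lost there: the interval held 1, and its upper end lay below the ratio of the whole class.

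Macrophages break down haem, and Hmox1 was highest in the myeloid classes of the Kif3aΔTub library, with 232 CPM in monocyte-like (205 to 261) and 144 CPM in macrophage-like cells (131 to 158). Myeloid RNA in the proximal tubule-like cells was therefore measured with 8 genes (C1qa, C1qb, C1qc, Lyz2, Cd74, Tyrobp, Fcer1g and Ly6c2). Their sum was 562 CPM in Kif3aΔTub proximal tubule-like cells, with none of the 8 at 0, and 11.7 CPM in WT ones, with 4 of the 8 at 0. The Kif3aΔTub sum was 1.29% of the macrophage-like level, whereas Hmox1 was 47.1% of it. In intercalated-like cells of the Kif3aΔTub library the sum was 0.169% and Hmox1 22.6% of the macrophage-like level. Hmox1 there stood at 32.6 CPM in Kif3aΔTub and 12.4 CPM in WT (log2 1.38, 0.87 to 1.94), and the difference appeared in both clusters, at 17.7 CPM in Kif3aΔTub against 3.49 CPM in WT cells of cluster 11 and 62.4 CPM in Kif3aΔTub against 19.6 CPM in WT cells of cluster 17. It fell under 2-fold with a 25% mitochondrial limit (0.82), at clustering resolution 2 (0.69), with classes set per cell from markers (0.63) and, after thinning, its interval held 1.

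Thick ascending limb-like cells held 42 Hmox1 UMIs in Kif3aΔTub and 5 UMIs in WT (log2 1.73, 0.52 to 3.55). Distal convoluted tubule-like cells held 55 Hmox1 UMIs in Kif3aΔTub and 8 UMIs in WT (1.25, 0.24 to 2.60). Both passed 2-fold on small counts. In thick ascending limb-like cells the call ended with doublets kept (0.93, −0.14 to 2.32) and with classes set per cell from markers (0.38, −0.78 to 1.80). In distal convoluted tubule-like cells it ended under each of the other scalings (0.75 to 0.84) and within cluster 10 (0.19, −1.22 to 2.72). Principal-like cells held 14.6 CPM in Kif3aΔTub and 17.7 CPM in WT, and endothelium-like cells 13.7 CPM in Kif3aΔTub and 18.5 CPM in WT, with intervals of the ratio that held 1.

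Nqo1, which reduces quinones to hydroquinones and is a standard readout of Nrf2 activity (chr8:107388225-107403206, − strand, 6 exons), stood at 48.1 CPM (543 UMIs) in Kif3aΔTub and 10.1 CPM (308 UMIs) in WT proximal tubule-like cells. It was 4.75-fold higher (log2 2.25, 2.04 to 2.45), the largest ratio of the 9 members tested in that class. Its call held under all 16 alternatives run, from 1.50 against WT clusters 5 and 8 to 3.03 against WT clusters 0 and 4, and within cluster 12 it was 2.07 (0.51 to 3.85). Kif3aΔTub cluster 1 stood at 48.2 CPM, and the 4 large WT clusters at 5.52 to 19.6 CPM. After thinning, 4.55% of Kif3aΔTub and 1.21% of WT proximal tubule-like cells held a UMI, beside 0.680% of Kif3aΔTub and 0.612% of WT thick ascending limb-like cells (unthinned 29.5% of Kif3aΔTub and 8.85% of WT proximal tubule-like cells).

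The order of the classes differed between the libraries. In the Kif3aΔTub library urothelium-like cells held the most Nqo1, 71.9 CPM (56.9 to 89.6), with no overlap with the proximal tubule-like cells next to them, and macrophage-like cells held 0.610 CPM. In the WT library distal convoluted tubule-like cells led at 30.3 CPM (22.5 to 40.0), with an interval that overlapped that of cycling-like cells (20.9 CPM) but lay above the proximal tubule-like cells. In distal convoluted tubule-like cells Kif3aΔTub stood at 20.3 CPM, lower than WT by less than 2-fold (log2 −0.59, −1.09 to −0.05). That ratio reached −1.02 with TMM factors and −1.08 with size factors, which passes 2-fold, and it was 0.91, with an interval that held 1, within cluster 10, so its sign turned. In thick ascending limb-like cells Nqo1 stood at 9.17 CPM in Kif3aΔTub and 9.72 CPM in WT. In intercalated-like cells it stood at 10.0 CPM (40 UMIs) in Kif3aΔTub and 4.97 CPM (16 UMIs) in WT, a log2 ratio of 0.99 (0.14 to 1.95), which passed 2-fold with doublets kept (1.10) and at clustering resolution 2 (1.61) but turned to −0.31, with an interval that held 1, after thinning.

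Txnrd1, the selenium-dependent reductase that keeps cytosolic thioredoxin reduced (chr10:82833951-82897712, + strand, 15 exons, overlapping Eid3 on the same strand), was the most evenly spread of the members. Its levels in the 6 compared classes ran from 54.1 to 129 CPM in the Kif3aΔTub library and from 33.9 to 77.5 CPM in the WT library, both with endothelium-like cells lowest and principal-like cells highest. In the Kif3aΔTub library principal-like, intercalated-like, injured tubule-like and distal convoluted tubule-like cells, at 129, 124, 121 and 113 CPM, did not differ from their neighbours in order beyond the counting intervals. Its log2 ratio was above 0 in all 6 classes, from 0.63 (0.42 to 0.86) in thick ascending limb-like cells to 1.27 (0.93 to 1.64) in distal convoluted tubule-like cells, and the interval left out 0 in all classes but the endothelium-like one. With size factors the thick ascending limb-like ratio was 0.15. The endothelium-like ratio ran from −0.62 with free RNA subtracted at the summed rate to 1.01 with the mean of each cell's own CPM. Txnrd1 in proximal tubule-like cells stood at 104 CPM in Kif3aΔTub and 61.9 CPM in WT, a log2 ratio of 0.75 (0.64 to 0.86). Only the distal convoluted tubule-like ratio passed 2-fold, at 113 CPM in Kif3aΔTub and 46.7 CPM in WT. That ratio was 0.86 with totals without mitochondrially encoded genes and 0.60 (0.03 to 1.28) within cluster 10.

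Srxn1 reduces over-oxidised peroxiredoxins back to working form (chr2:152105516-152111376, + strand, 2 exons). In proximal tubule-like cells it stood at 42.0 CPM in Kif3aΔTub and 23.6 CPM in WT, a log2 ratio of 0.83 (0.66 to 1.00) that did not reach 2-fold. It passed 2-fold against WT clusters 5 and 8 (1.38) and within cluster 12 (1.52, 0.07 to 3.0). In WT, intercalated-like cells held the most, at 67.1 CPM (58.4 to 76.7), with an interval that overlapped that of principal-like cells (44.8 CPM, 33.0 to 59.4). In intercalated-like cells Srxn1 stood at 42.6 CPM in Kif3aΔTub and 67.1 CPM in WT (log2 ratio −0.65, −0.95 to −0.36). In the Kif3aΔTub library the 4 highest classes, distal convoluted tubule-like, cycling-like, intercalated-like and proximal tubule-like cells, lay between 42.0 and 46.3 CPM with overlapping intervals. Endothelium-like cells held 19 UMIs (10.8 CPM) in Kif3aΔTub and 24 UMIs (37.0 CPM) in WT, a log2 ratio of −1.77 (−2.72 to −0.84). That lower level rested on few UMIs: in cluster 15 the ratio was −1.41 (−3.31 to 0.49) and after thinning −1.62 (−3.52 to 0.29), with intervals that held 1.

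**Figure D4:**
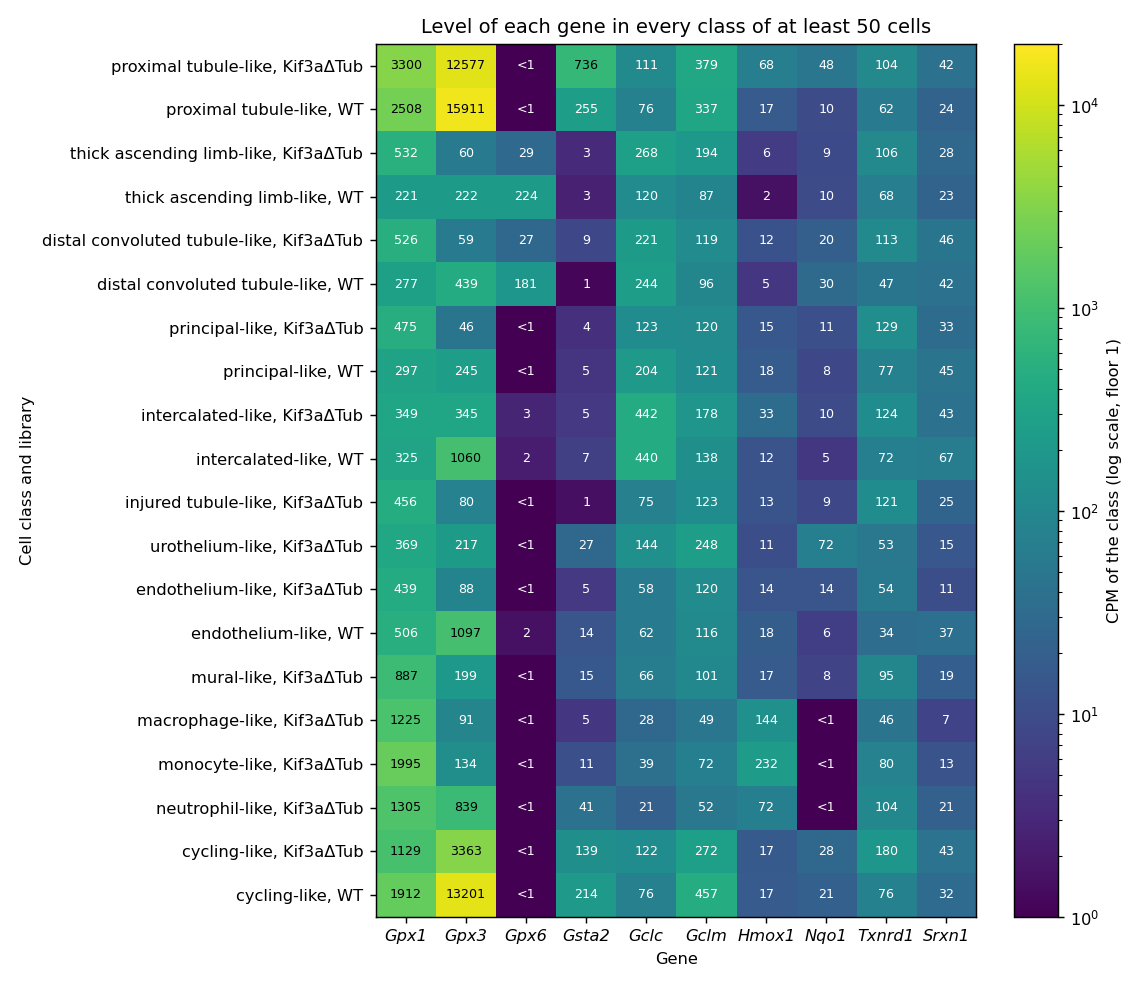
Level of each gene (CPM, colour on a log scale, values printed) in every class of at least 50 cells, with Kif3aΔTub above WT where both reach 50 cells. Gpx3 and Gsta2 are highest in proximal tubule-like cells, Gpx6 in thick ascending limb-like and distal convoluted tubule-like cells, Gclc in intercalated-like cells and Hmox1 in monocyte-like and macrophage-like cells.

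Because the classes differ in size, the cells that supplied a gene's UMIs differed between the libraries even where its level did not. Proximal tubule-like cells held 92.8% of Gsta2 and 90.2% of Gpx3 UMIs in the Kif3aΔTub library, and 96.0% of Gsta2 and 95.5% of Gpx3 UMIs in the WT library. They held 49.8% of Gpx1 UMIs in Kif3aΔTub and 93.2% in WT, 13% of Txnrd1 UMIs in Kif3aΔTub and 70.4% in WT, and 31.2% of Hmox1 UMIs in Kif3aΔTub and 80.7% in WT. In the Kif3aΔTub library macrophage-like and monocyte-like cells added 19.2% and 11% of Hmox1 UMIs, and principal-like and injured tubule-like cells 21.1% and 20.9% of Txnrd1 UMIs. Injured tubule-like cells there held Gpx1 at 456 CPM, Gclm at 123 CPM, Txnrd1 at 121 CPM, Gclc at 75.4 CPM and Hmox1 at 13.1 CPM. Summed over all cells, Gpx3 stood at 1989.8 CPM in Kif3aΔTub and 11929.8 CPM in WT and Gpx1 at 946 CPM in Kif3aΔTub and 1927 CPM in WT, while Hmox1 stood at 31.0 CPM in Kif3aΔTub and 15.2 CPM in WT. These sums mix class size with level, and the ratio of Gpx1 over all cells runs against its ratio within proximal tubule-like cells.

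**Figure D5:**
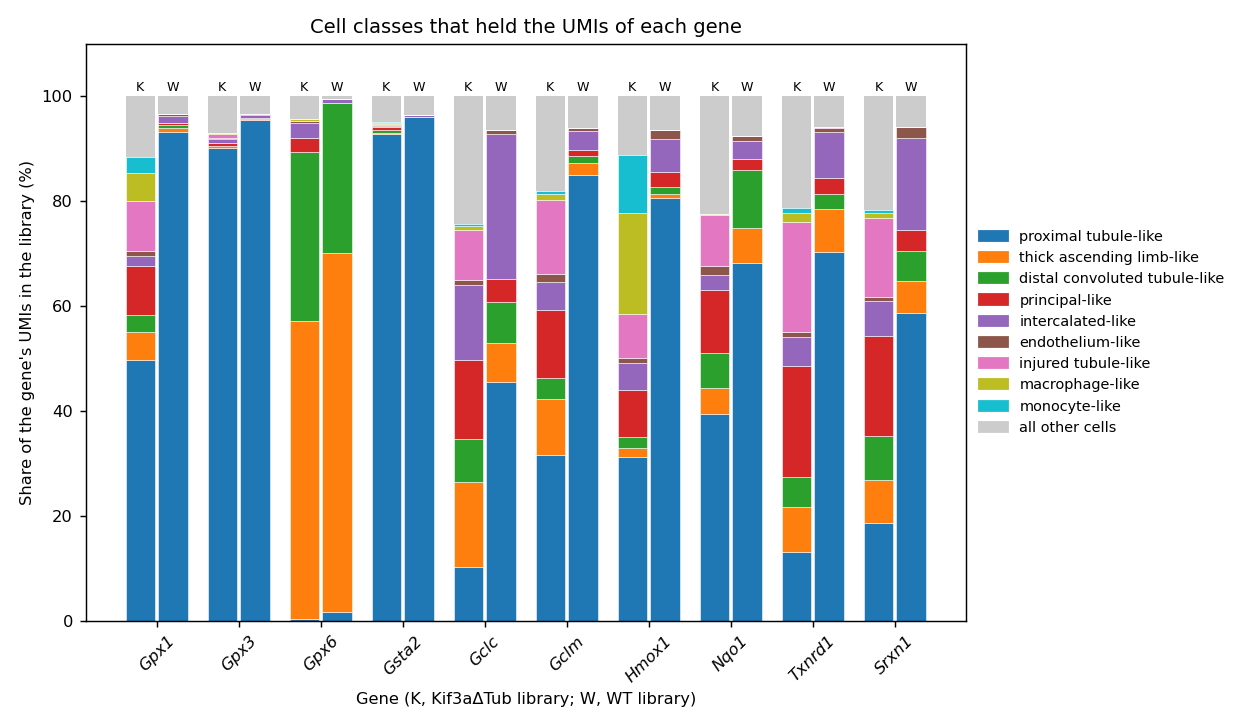
Share of each gene's UMIs (%) held by each cell class, as stacked bars, with the Kif3aΔTub library (K) left of the WT library (W). Proximal tubule-like cells supply over 90% of Gpx3 and Gsta2 in both libraries, but 49.8% of Gpx1 in Kif3aΔTub against 93.2% in WT.

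The 3 genes whose ratio passed in proximal tubule-like cells were read beside segment genes, because the Kif3aΔTub cells matched neither WT pair of clusters. A list of 6 early segment genes (such as Slc5a2 and Slc5a12) summed to 3207 CPM in Kif3aΔTub cluster 1, to 7935 and 6986 CPM in WT clusters 0 and 4, and to 2431 and 2723 CPM in WT clusters 5 and 8. A list of 7 late segment genes (such as Slc7a13) summed to 80.5 CPM in Kif3aΔTub cluster 1, to 19.6 and 13.6 CPM in WT clusters 0 and 4, and to 754 and 962 CPM in WT clusters 5 and 8. Against clusters 0 and 4 the log2 ratios were 1.16 for Gsta2, 1.98 for Hmox1 and 3.03 for Nqo1, and against clusters 5 and 8 they were 2.61 for Gsta2, 2.08 for Hmox1 and 1.50 for Nqo1. All of these passed 2-fold, although the values moved with the WT clusters used, and within cluster 12 only Nqo1 of the 3 passed.

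The related genes, 94 without the members, were counted the same way. Among proximal tubule-like cells 19 of 89 with enough UMIs were higher and 4 lower, with a median log2 ratio of 0.24, beside 15.3% and 3.92% of all genes. The other 3 scalings gave 13 to 17 higher and 8 lower. Glutathione transferases made up the largest group, with 8 of 18 higher, Gsta2 among them, and 0 lower; with TMM factors 6 of 18 passed, without Gsta3 and Gstm6. The other 7, named after their values were seen, were Gsta1, Gsta3, Gsta4, Gstm1, Gstm2, Gstm6 and Mgst1, with Gstm1 at 436 CPM in Kif3aΔTub and 119.6 CPM in WT and Mgst1 at 212 CPM in Kif3aΔTub and 15.1 CPM in WT. Gsta1 shares end sequence with Gsta2, and its 15.2 CPM in Kif3aΔTub and 0.395 CPM in WT are uncertain for that reason. Of genes for haem, iron and quinones, 5 of 14 were higher (Hmox1, Nqo1, Cbr1, Cbr3 and Ephx1). Cbr3, a carbonyl reductase, stood at 43.5 CPM (491 UMIs) in Kif3aΔTub and 0.132 CPM (4 UMIs) in WT, a log2 ratio of 8.20 (7.0 to 10.25). Of 5 superoxide dismutase and catalase genes, 0 were higher and 0 lower. Of 5 glutathione peroxidases 2 were higher (Gpx7 and Gpx8), of 19 genes of the thioredoxin and peroxiredoxin systems 2 (Txnrd3 and Txnip), and of 7 enzymes that supply NADPH 2 (G6pdx and Pgd), with 0 lower in each of these lists. Under each of the other 3 scalings Txnrd3 and G6pdx were under 2-fold, and Msrb1, Me1, Lrp2 and Anpep were added as lower. The genes in these 2 sentences and those named for the haem list, other than the members and Cbr3, were named after their values were seen. RNA of other classes was not subtracted from the related genes, and its part in their ratios was not tested.

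Of the 10 genes around Nrf2, 2 were higher in proximal tubule-like cells, beside 15.3% of all genes: Nfe2l2, which codes for Nrf2 itself, at 48.9 CPM in Kif3aΔTub and 19.3 CPM in WT (log2 1.34, under 2-fold with TMM factors), and its partner Maff at 4.70 CPM in Kif3aΔTub and 0.230 CPM in WT (4.27). Of 12 genes of glutathione synthesis and turnover, 1 was higher and 3 lower, and the 3 were the turnover enzymes Ggct (17.5 CPM in Kif3aΔTub, 75.1 CPM in WT, log2 −2.10), Chac2 (−1.44) and Dpep1 (46.7 CPM in Kif3aΔTub, 149 CPM in WT, −1.67). Of 8 selenium supply genes 0 were higher and 1 lower: Selenop, the selenium carrier protein, stood at 148 CPM in Kif3aΔTub and 478 CPM in WT (log2 −1.69), and it was also lower by at least 2-fold in 4 other classes: thick ascending limb-like (29.0 CPM in Kif3aΔTub, 90.0 CPM in WT), distal convoluted tubule-like, principal-like and intercalated-like cells. Nfe2l2, Maff and Chac2 were named after their values were seen.

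In thick ascending limb-like cells 20 of 85 related genes were higher and 6 lower, beside 22.6% and 4.45% of all genes. The other scalings gave 9 higher and 11 to 12 lower. Highest in this class were Cbr3 (log2 3.44), Maff (3.37) and Anpep (2.51). Lowest were Gstk1 (−2.47), Gsta4 (23.0 CPM in Kif3aΔTub, 78.4 CPM in WT, −1.76) and Selenop (−1.63). In distal convoluted tubule-like cells 18 of 82 were higher and 4 lower, beside 20.6% and 3.49%, and the other scalings gave 9 higher and 10 to 12 lower. Glutathione reductase (Gsr), which returns oxidised glutathione to its working form, stood at 129 CPM in Kif3aΔTub and 26.1 CPM in WT distal convoluted tubule-like cells (log2 2.29, 1.86 to 2.79). Gstk1 was lowest there, at 21.8 CPM in Kif3aΔTub and 50.4 CPM in WT (−1.21). This class set cluster 10 (387 Kif3aΔTub cells) mostly against WT cluster 22 (163 WT cells), and the related genes were not compared within cluster 10. Genotype and cluster thus cannot be told apart in these values, nor in those of the thick ascending limb-like cells. In principal-like cells 7 of 85 were higher and 4 lower, beside 5.49% and 4.02% of all genes. Gsta4 was lowest there, at 9.02 CPM in Kif3aΔTub and 26.1 CPM in WT (−1.56). Among the 7 higher genes were Cbr3 at 106 CPM in Kif3aΔTub and 37.3 CPM in WT (1.49, 1.06 to 2.00) and Osgin1, an Nrf2 target, with 65 UMIs (4.41 CPM) in Kif3aΔTub and 0 UMIs in WT. The class held 14752871 UMIs in Kif3aΔTub and 1070972 in WT, and the lower end of the Osgin1 log2 ratio was 0.31. In intercalated-like cells 6 of 84 were higher and 7 lower (5 and 10 under the other scalings), beside 9.21% and 3.07%, with Maff at 19.8 CPM in Kif3aΔTub and 5.28 CPM in WT (1.87, 1.14 to 2.76). Lowest were Lrp2 (7 UMIs in Kif3aΔTub and 59 in WT, −3.30), Selenop (−1.67) and Anpep (−1.54). Lrp2 is also a proximal tubule marker. The 10 proximal tubule genes used to measure free RNA had a median log2 ratio of −2.68 in this class, with 9 lower. The part of free RNA in the Lrp2 value was not tested. In endothelium-like cells 4 of 74 were higher and 3 lower, beside 3.59% and 2.98%.

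The genes whose levels ran most like those of each member were found over 20 class and library profiles of at least 50 cells, by Pearson's r of log2(CPM + 10) among 7154 genes. The profiles share 2 libraries, so these values are descriptions. Gpx3 was most like Slc34a1 (r = 0.976), the sodium-phosphate transporter of the proximal tubule, Gsta2 like Slc13a1 (0.990), the proximal sulfate transporter, and Gpx6 like Fads6 (0.992). Hmox1 was most like the MHC class II genes H2-Aa (0.908) and H2-Eb1 (0.892), and Gpx1 like Cyba (0.915), a subunit of the phagocyte NADPH oxidase. Gclc was most like S100a1 (0.897) and Gclm like Pls1 (0.910). The nearest genes were less close for Txnrd1 (Ube2m, 0.849), Srxn1 (Rtn3, 0.839) and Nqo1 (the transferase Gsta4, 0.837).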

How the data were processed

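The submitters deposited UMI counts per gene and cell barcode, as whole numbers that were not normalised. The software named per the file headers is Cell Ranger 3.1.0. The submitters' processing notes list Cell Ranger 3.0.2, Seurat 3.1.1 and mm10; the other upstream steps are not given in the sources used here. No read was realigned. The 35 symbols that occur more than once were kept apart by identifier. Positions are from GENCODE vM21 (GRCm38), and promoters from RefSeq (GRCm38.p6).

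Scrublet doublets were removed from each library: 170 Kif3aΔTub cells (2.35%) and 54 WT cells (1.24%). With Python 3.11.15, numpy 2.4.6, scipy 1.17.1, scanpy 1.11.5 and leidenalg 0.10.2, genes found in at least 10 cells were normalised to 10000 per cell and logged. The 2000 variable genes of each library (3127 in all, without the 104 antioxidant genes left out), 30 principal components, 15 neighbours and Leiden resolution 1 gave 32 clusters, without integration. A cluster was named from 22 marker lists when at least 3 markers reached 50 CPM, 20 UMIs and 2-fold over the other clusters, a naming rule written after the clusters were seen.

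Ratios are Kif3aΔTub over WT, from UMIs summed over the cells of a class with 0.5 UMI added, and their intervals are those of the exact conditional test of 2 Poisson sums. PCR duplicates are removed by UMIs, but intervals cover counting error only. With free RNA subtracted, and with the mean of each cell's own CPM, the interval of the main ratio was moved by the change in the ratio. It was not computed anew, so it leaves out the error of the subtraction. Shares of cells with a UMI were taken after thinning each cell to 1000 UMIs, which leaves out 549 Kif3aΔTub and 310 WT cells. TMM factors came from edgeR 4.0.16 and size factors from DESeq2 1.42.0 in R 4.3.3, used for scaling only. The code was tested on simulated data, and figures were drawn with matplotlib 3.10.9.

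The members, lists and tests were chosen with earlier results of these data known. All 10 members are named. Besides those named after their values were seen, related genes come from the 3 highest and 3 lowest of a class. These were taken among genes with at least 50 UMIs in the higher library, and not all of them are named. The genes most like each member come from those that reach 50 CPM. The median measure of free RNA, the comparisons within clusters and the limit on dissociation stress UMIs were chosen after seeing the data. Cells of unnamed clusters and classes under 100 cells in a library entered no ratio.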

Additional observations from a re-analysis of the deposited data

Results flagged for a closer look

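For 4 of the 10 genes the ratio of Kif3aΔTub over WT ran in opposite directions in 2 cell classes, with counting intervals that left out 1 in both. With 1 library per genotype, none of these differences was tested between classes.

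Gpx1 had a log2 ratio of 1.27 in thick ascending limb-like cells and −0.20 in endothelium-like cells, a difference of 1.47. After subtraction of free RNA the endothelium-like value was 0.02 at the median rate and −1.32 at the summed rate, and with totals without mitochondrially encoded genes the thick ascending limb-like value was 0.82. Gclc had a log2 ratio of 1.16 in thick ascending limb-like cells and −0.73 in principal-like cells, a difference of 1.88. The principal-like value was −0.15 within cluster 18 and −1.28 after thinning. Nqo1 had a log2 ratio of 2.25 in proximal tubule-like cells and −0.59 in distal convoluted tubule-like cells, a difference of 2.83. Within cluster 10 the distal convoluted tubule-like value was 0.91, so the directions there were not opposite. Srxn1 had a log2 ratio of 0.83 in proximal tubule-like cells and −1.77 in endothelium-like cells, a difference of 2.60.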

How the results depend on the processing

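No paired analysis was possible because there is 1 library per genotype, and for the same reason no library could be left out. In proximal tubule-like cells the count of 3 genes higher in Kif3aΔTub became 2 within cluster 12. There Nqo1 still passed and Srxn1 was added, while Gsta2 and Hmox1 fell under 2-fold. The count became 4 against WT clusters 5 and 8, with Srxn1 added, and stayed 3 under the other settings. The 0 lower became 1 (Gpx6) with totals without mitochondrially encoded genes, TMM factors, size factors and the mean of each cell's own CPM. Outside the proximal tubule-like cells, the 8 pairs higher became 3 under each of the first 3 of these settings, 0 of 30 with a 25% mitochondrial limit, 5 of 30 at resolution 0.5, 4 with classes set per cell from markers and 2 after thinning. The 8 pairs lower became 4 of 30 with the 25% limit and 5 of 30 at resolution 0.5, and lay between 6 and 10 otherwise. At the 25% limit thick ascending limb-like and distal convoluted tubule-like cells fell under 100 WT cells, which removes their pairs.

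Related genes lower in proximal tubule-like cells became 8 (from 4) under each of those 3 scalings. In thick ascending limb-like cells they became 9 higher and 12, 11 and 12 lower, and in distal convoluted tubule-like cells 9 higher and 10, 10 and 12 lower. Each scaling moves every log2 ratio of a class by 1 constant, of −0.45, −0.41 and −0.48 in thick ascending limb-like cells. With only genes of at least 100 UMIs, the share of all genes passing was 6.03% higher and 1.99% lower in intercalated-like cells and 2.37% higher and 1.55% lower in endothelium-like cells.

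Gpx6 in distal convoluted tubule-like cells turned to 0.44 within cluster 10, and Gpx3 in principal-like cells to 0.20 after subtraction of free RNA at the median rate; the cause was not tested for Gpx6, while for Gpx3 the subtraction itself removes most of its UMIs. The calls that held under every setting run that gave a value were Nqo1 in proximal tubule-like cells (1.50 to 3.03), Gpx6 in thick ascending limb-like cells (−3.43 to −2.70) and Gpx3 in thick ascending limb-like (−3.49 to −1.29), distal convoluted tubule-like (−3.39 to −1.82), intercalated-like (−1.96 to −1.19) and endothelium-like cells (−3.97 to −1.86). For Gpx3 in endothelium-like cells both free RNA subtractions, and in thick ascending limb-like and distal convoluted tubule-like cells the one at the summed rate, left no Kif3aΔTub UMIs and gave no value. Gpx3 levels in thick ascending limb-like and endothelium-like cells are near free RNA, as given above. Depth limits Gpx6, Gsta2, Hmox1 and Srxn1 outside the classes where they are high, where few UMIs give wide intervals.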
